A study of Arabidopsis thaliana with 12 samples.

Results

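The genes described here are GH3.3 and WES1, which encode enzymes that conjugate the plant hormone auxin, and YUC2, which encodes an enzyme of its synthesis. They were taken by gene name, with earlier results of these data known. Each is read by 1 probe set, and they are 3 of 22746 probe sets tested on the ATH1 array, which reads each transcript through a set of short oligonucleotides. Auxin is made from tryptophan in a short pathway whose last step is carried out by flavin monooxygenases of the YUC family, YUC2 among them. Enzymes of the GH3 family, which include GH3.3 and WES1 (also called GH3.5), join auxin to amino acids and thereby lower the amount of free hormone. Several GH3 genes are themselves switched on by auxin, and WES1 is known in Arabidopsis for its induction by stress.

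RNA came from young rosette leaves, 2 mm to 1 cm long, of the cuticle mutants bdg, fdh and lcr and of wild type Columbia plants, with 3 biological replicates and 1 array per replicate. The allele bdg-2 has a deletion of 7 bp in the first exon of BODYGUARD, which encodes an extracellular protein of the hydrolase fold, and the allele fdh-3940 (fdh-3940S1 in the study's methods) has an insertion of 2 bp in the first exon of FIDDLEHEAD, which encodes a protein like the condensing enzymes of fatty acid elongation. The allele lcr-3P77 carries an insertion of 1169 bp in the leader of LACERATA, which encodes a fatty acid hydroxylase of the cytochrome P450 class. Each genotype was represented by 1 allele, all plants were 5.5 weeks old and had grown in days of 8 h of light, and every sample pooled leaves of 15 plants, so that differences between single plants are not visible.

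Median log2 expression values of the 12 arrays lay between 4.56 and 4.70. No background level was measured, and a value under the lowest array median of 4.56 was therefore not shown to be above background. RCA, which encodes the activase of the main carbon-fixing enzyme and was the only one of 5 leaf markers with a probe set named for it, stood at 13.86 to 14.47 on all 12 arrays. None of the 3 mutated genes had a probe set named for it in the annotation used, so the genotypes were not checked from the arrays. The difference between the 3′ and the 5′ control probe sets of GAPDH, which grows when RNA is degraded, was 3.38 on wild type array 2, 3.17 on bdg array 1 and 2.44 on lcr array 1, and 1.32 to 1.98 on the other 9 arrays.

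GH3.3 (At2g23170) lies on chromosome 2 at 9863855 to 9866562 of the assembly TAIR10.1 and had its highest values in fdh. Its log2 value was 4.27, 4.82 and 6.47 in bdg, 7.61, 7.57 and 6.50 in fdh and 5.12, 5.64 and 6.73 in lcr, against 2.76, 3.57 and 4.41 in wild type. All fdh and lcr arrays lay above all wild type arrays, whereas the lowest bdg array lay just under the highest wild type array. The means were 5.19 ± 1.15 in bdg, 7.22 ± 0.63 in fdh and 5.83 ± 0.82 in lcr, against 3.58 ± 0.82 in wild type (SD, n = 3 each). The 3 wild type values lie under the lowest array median, and how far the floor of the values sets the size of the differences was not tested.

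WES1 (At4g27260) lies on chromosome 4 at 13653579 to 13656285, and its levels in bdg and fdh lay farther apart than those of GH3.3. Its log2 value was 2.43, 2.42 and 2.59 in bdg, 7.61, 7.01 and 6.56 in fdh and 3.23, 5.89 and 4.71 in lcr, against 2.41, 2.44 and 2.43 in wild type. The bdg arrays overlapped the wild type arrays, at percentiles 19.8 to 28.1 of the probe sets on each array in bdg against 19.5 to 21.0 in wild type, while the fdh arrays stood at percentiles 67.6 to 79.0. All bdg and wild type values lie under the lowest array median. The lcr arrays lay in between, without overlap with either neighbour, and varied among themselves more than those of any other genotype. The means were 2.48 ± 0.10 in bdg, 7.06 ± 0.53 in fdh and 4.61 ± 1.33 in lcr, against 2.43 ± 0.01 in wild type (SD, n = 3 each).

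YUC2 (At4g13260) lies on chromosome 4 at 7721487 to 7724070, and was the only member with lower values in the mutants. Its log2 value was 2.27, 2.33 and 2.27 in bdg, 2.46, 2.30 and 2.33 in fdh and 2.19, 2.37 and 2.49 in lcr, against 3.09, 3.05 and 3.17 in wild type. All 9 mutant arrays lay below all wild type arrays, as they did in 0.633% of all probe sets, but all 12 values lie under the lowest array median, and none was shown to be above background. Among the probe sets of each array it stood at percentiles 11.1 to 23.4 in the mutants, against 36.5 to 39.0 in wild type.

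**Figure D1:**
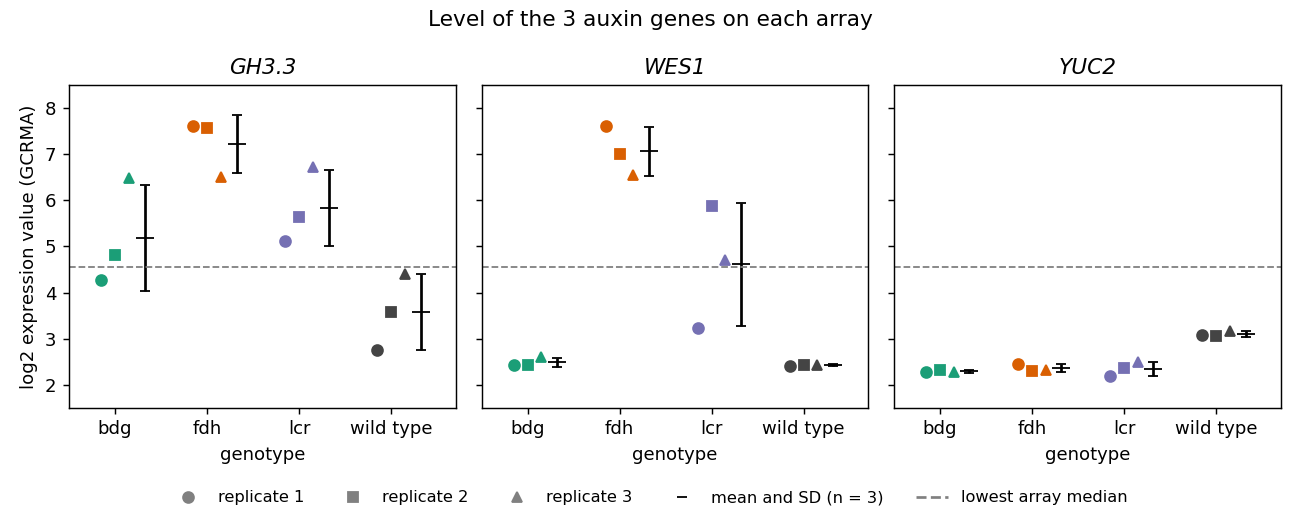
The log2 expression value (vertical axis) of GH3.3, WES1 and YUC2 on each of the 3 arrays of bdg, fdh, lcr and wild type, with the mean and SD as black bars and the lowest array median, 4.56, as a dashed line. GH3.3 is above the wild type arrays in all fdh and lcr arrays, WES1 is near 2.4 in both bdg and wild type, and YUC2 is under the dashed line throughout.

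The order of the levels was fdh, lcr, bdg, wild type for GH3.3, with overlapping arrays between each pair of neighbours. For WES1 the order was fdh, lcr, bdg, wild type as well, but bdg and wild type overlapped and the other neighbours did not. For YUC2 wild type was highest and did not overlap with the mutants, whose arrays overlapped among each other.

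Each mutant was compared with wild type to ask which transcripts change when the cuticle is defective, by limma over all 4 genotypes with Benjamini-Hochberg adjustment over all probe sets, and by Rank Product, the test of the study, which gives a proportion of false positives (pfp). The 3 comparisons share the wild type arrays. Leaves hold many cell types, and more cells of a type cannot be told apart from more RNA per cell.

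In fdh, both conjugation genes rose, and the synthesis gene passed limma with lower values. The wild type values of all 3 genes lie under the lowest array median, so the differences are given on the log2 scale of the deposited values and not as folds. WES1 was 4.63 higher (standard error 0.555, limma adjusted p = 0.00664) and its pfp by Rank Product was 0, since none of 100 permutations reached its rank product. This call of limma held without each array in turn, at adjusted p-values of 0.00166 to 0.0341. GH3.3 was 3.64 higher (standard error 0.676, limma adjusted p = 0.0325, pfp = 0.00292). YUC2 had a log2 difference of -0.74 (standard error 0.0764, limma adjusted p = 0.00365) between values that were not shown to be above background in either genotype, and did not pass Rank Product (pfp = 0.384). Over all probe sets limma called 1.53% higher and 0.633% lower in fdh, and Rank Product called 1.69% higher and 0.189% lower. In 8.34% of all probe sets the fdh arrays lay above all wild type arrays, as in GH3.3 and WES1, and in 8.55% below, as in YUC2. The limma call for GH3.3 ended when fdh array 1 (adjusted p = 0.138), fdh array 2 (0.122), bdg array 2 (0.0528), wild type array 1 (0.0992) or wild type array 2 (0.085) was left out, with log2 differences between 3.24 and 4.06 over all arrays left out, and also with the 3′ to 5′ difference of GAPDH as a covariate (log2 difference 3.35, adjusted p = 0.0573).

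In lcr, the conjugation genes had similar log2 differences from wild type, 2.25 for GH3.3 (standard error 0.676, 95% interval 0.72 to 3.78) and 2.18 for WES1 (standard error 0.555, 95% interval 0.93 to 3.44). Neither passed limma (adjusted p = 0.338 for GH3.3 and 0.216 for WES1), and both passed Rank Product (pfp = 0.0154 for GH3.3 and 0.0201 for WES1). YUC2, again under the lowest array median in both genotypes, had a log2 difference of -0.75 (standard error 0.0764, limma adjusted p = 0.00942) and did not pass Rank Product (pfp = 0.532). Limma called 0.339% of all probe sets higher and 0.0615% lower in lcr, and Rank Product 1.03% higher and 0.114% lower. In 5.36% of all probe sets the lcr arrays lay above all wild type arrays, as in GH3.3 and WES1, and in 3.59% below, as in YUC2. The result for WES1 depended on lcr replicate 1, the lcr array with the lowest value. Without it the log2 difference was 2.87 and passed limma (adjusted p = 0.0458), while without lcr replicate 2, the array with the highest value, it was 1.54 (adjusted p = 0.406). The Rank Product call for WES1 ended without lcr replicate 1 (pfp = 0.0521), lcr replicate 2 (0.264) and lcr replicate 3 (0.14), and that for GH3.3 without wild type replicate 1 (0.0541), lcr replicate 1 (0.0724), lcr replicate 2 (0.0977) and lcr replicate 3 (0.175).

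In bdg, YUC2 was the only member that passed a test. It had a log2 difference of -0.81 (standard error 0.0764, limma adjusted p = 0.0102), with all values of both genotypes under the lowest array median. In bdg against wild type, limma called 0.0176% of all probe sets lower and 0.0923% higher. The bdg arrays lay below all wild type arrays in 2.29% of all probe sets. The limma call for YUC2 ended when bdg array 1 (adjusted p = 0.0513) or bdg array 2 (0.0505) was left out, and Rank Product did not call it (pfp = 0.668). GH3.3 had a log2 difference of 1.61 with a 95% interval of 0.076 to 3.14 (limma adjusted p = 1, unadjusted p = 0.0416 from the same limma fit, pfp = 0.0647), and passed Rank Product when wild type array 3, the highest of wild type, was left out (pfp = 0.0348). WES1 had a log2 difference of 0.057 with a 95% interval of -1.20 to 1.31 (limma adjusted p = 1, pfp = 1.18). Rank Product called 0.519% of all probe sets higher and 0.0352% lower in bdg.

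YUC2 thus passed limma in each mutant, as did 0.0132% of all probe sets, 3 in number, that were lower in all 3. Of the 9851 probe sets that lay under the lowest array median on all 12 arrays, as YUC2 did, limma called 0.0203% lower in bdg, 0.102% in fdh and 0.0406% in lcr. In limma models of a single mutant and wild type alone, the call for YUC2 ended in bdg (adjusted p = 0.103) and in lcr (0.169), and in fdh the adjusted p was 0.0403.

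With the 3 mutants averaged and set against wild type, the log2 difference was -0.77 for YUC2 (standard error 0.0623, limma adjusted p = 0.002), 2.50 for GH3.3 (standard error 0.552, adjusted p = 0.105) and 2.29 for WES1 (standard error 0.453, adjusted p = 0.0668). Limma called 0.642% of all probe sets higher and 0.18% lower in this comparison. The average of WES1 joins fdh and lcr arrays with bdg arrays that overlap wild type, and it passed limma when lcr array 1 (adjusted p = 0.0111) or lcr array 2 (0.0383) was left out.

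The mutants were also compared with each other, since a gene that passes in 1 mutant and not in another is not thereby shown to differ between them. WES1 stood higher in fdh, by a log2 difference of 4.58 from bdg (standard error 0.555, limma adjusted p = 0.0166). Its bdg values all lie under the lowest array median. In fdh against bdg, limma called 0.501% of all probe sets higher and 0.259% lower. The call for WES1 ended when fdh array 1 (adjusted p = 0.073), bdg array 1 (0.0651), bdg array 2 (0.06) or bdg array 3 (0.0514) was left out. The log2 differences lay between 4.30 and 4.83 over all arrays left out. Between fdh and lcr the log2 difference of WES1 was 2.45 (95% interval 1.20 to 3.71, adjusted p = 0.178), and between lcr and bdg it was 2.12 (95% interval 0.87 to 3.38, adjusted p = 1). Neither passed. The arrays do not overlap, but the share of all probe sets that separate in this way between mutants is not given here. Limma called 0.0528% of all probe sets higher and 0.0352% lower in fdh against lcr. In lcr against bdg it called 0.0044% higher and 0% lower.

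GH3.3 did not pass in any of the 3 comparisons between mutants. Its log2 difference was 2.04 between fdh and bdg (95% interval 0.51 to 3.57, limma adjusted p = 0.222), 1.40 between fdh and lcr (95% interval -0.13 to 2.93, adjusted p = 0.716) and 0.64 between lcr and bdg (95% interval -0.89 to 2.17, adjusted p = 1). For YUC2 the mutants lay close together, at log2 differences of 0.071 between fdh and bdg (95% interval -0.10 to 0.24), 0.011 between fdh and lcr (95% interval -0.16 to 0.18) and 0.059 between lcr and bdg (95% interval -0.11 to 0.23), and the sign of each changed under at least 1 other setting.

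**Figure D2:**
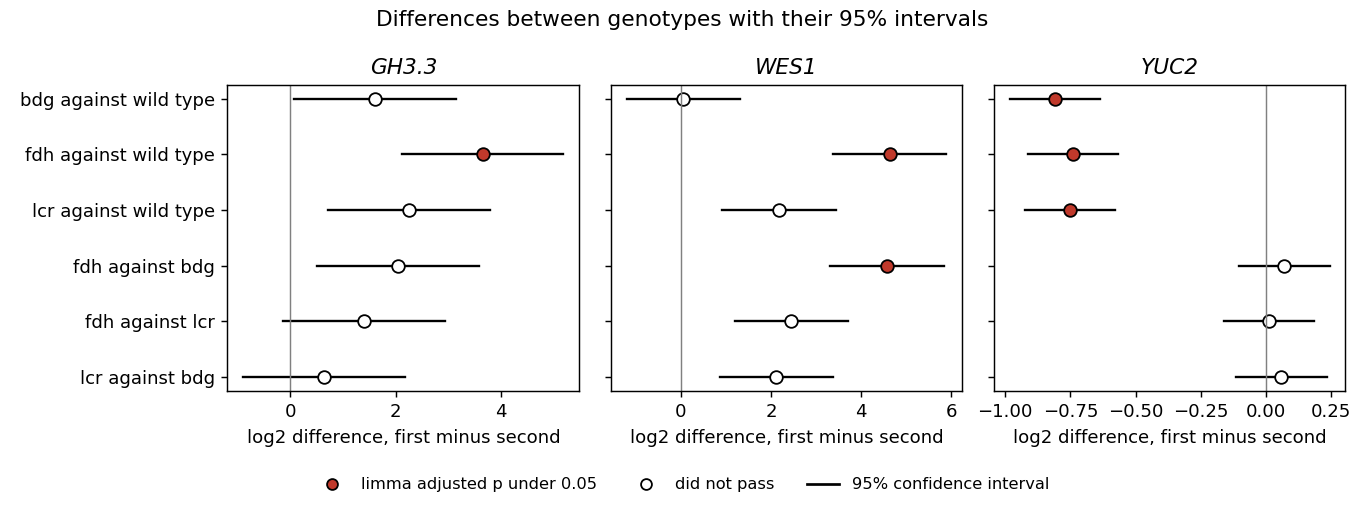
Log2 differences (horizontal axis, first genotype minus second) of GH3.3, WES1 and YUC2 in the 6 comparisons of single genotypes, with 95% confidence intervals from limma as lines and filled points where the adjusted p was under 0.05. The panels have different horizontal scales. WES1 passed in fdh against wild type and against bdg, GH3.3 in fdh against wild type, and YUC2 in all 3 mutants against wild type.

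The arrays with the largest 3′ to 5′ difference of GAPDH in bdg and lcr, which are replicate 1 of each, also had the lowest value of their genotype for GH3.3 (4.27 and 5.12). For YUC2, lcr replicate 1 had the lowest lcr value (2.19), while bdg replicates 1 and 3 were level at 2.27. In lcr the same array had the lowest WES1 value, 3.23. By GAPDH, the array with the largest difference in fdh had the highest fdh values of all 3 genes. The one in wild type had the middle value of GH3.3, the highest of WES1 and the lowest of YUC2. By the same difference of the actin controls, bdg, lcr and wild type gave the same arrays, but fdh gave replicate 3 (5.11). That array had the lowest fdh values of GH3.3 (6.50) and WES1 (6.56) and the middle value of YUC2 (2.33). With the GAPDH difference as a covariate, the log2 difference between fdh and wild type was 4.54 for WES1 (adjusted p = 0.0147) and -0.77 for YUC2 (adjusted p = 0.00609), and that for YUC2 was -0.82 in bdg (adjusted p = 0.0117) and -0.76 in lcr (adjusted p = 0.00969).

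**Figure D3:**
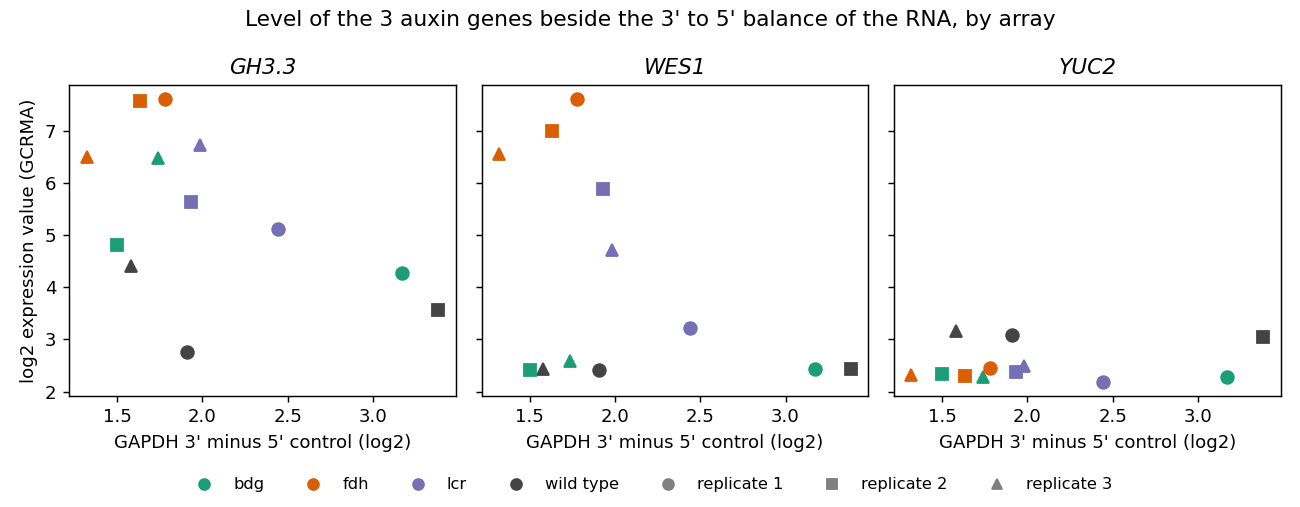
The log2 expression value of GH3.3, WES1 and YUC2 (vertical axis) against the difference between the 3′ and the 5′ GAPDH control probe sets in log2 (horizontal axis), 1 point per array, coloured by genotype. Wild type array 2 and bdg array 1 stand apart at 3.38 and 3.17, and the fdh arrays lie at the low end, 1.32 to 1.78.

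Among the relatives of GH3.3 and WES1, no other GH3 gene with a named probe set reached the lowest array median on any array. A list of 8 GH3 genes for auxin conjugation had 5 with such a probe set, of which limma called 2, GH3.3 and WES1, higher in fdh, where it called 1.53% of all probe sets higher, and 0 in bdg and lcr. It called 0 of the 5 lower in any mutant. At an unadjusted p under 0.05 limma had 2 of the 5 in bdg, 3 in fdh and 3 in lcr, of which GH3.9 had lower values in each mutant and the others higher ones. The share of all probe sets under that threshold is not given here, so these counts do not show an excess in the list. The remaining 3, GH3.1, GH3.9 and GH3.17, lay between 2.13 and 3.06 on all arrays. GH3.9 was at 2.21, 2.21 and 2.46 in bdg, 2.19, 2.21 and 2.20 in fdh and 2.16, 2.21 and 2.19 in lcr, against 2.94, 2.21 and 3.06 in wild type, with limma adjusted p-values of 1, 0.207 and 0.429 in the order of the mutants. Its wild type array 2, the one with the largest GAPDH difference, was at the level of the mutants. The median log2 difference of the 5 genes was 0.0012 in bdg, 0.0071 in fdh and 0.0025 in lcr, beside -0.0067, -0.0052 and 0.0044 over all probe sets. A further 6 listed loci that the annotation gives by locus code alone lay between 2.20 and 3.22, within 0.068 of wild type in every mutant.

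Among the relatives of YUC2, a list of 14 genes of the YUC and TAA families, which together turn tryptophan into auxin, had 4 with a named probe set, and YUC2 was the only 1 that limma called lower in each mutant, with 0 called higher, beside 0.0176% of all probe sets called lower in bdg, 0.633% in fdh and 0.0615% in lcr. YUC4, YUC6 and YUC11 lay between 1.80 and 2.48 on all arrays. YUC6 was at 1.80 to 1.83 on the 9 mutant arrays, against 2.47, 1.84 and 1.82 in wild type, and its limma adjusted p-values were 1 in bdg, 0.569 in fdh and 0.891 in lcr. In the order of the mutants, the median log2 difference of the 4 genes was -0.12, -0.13 and -0.12, beside -0.0067, -0.0052 and 0.0044 over all probe sets. This median lies midway between YUC4 and YUC6 and does not show a decrease of the list as a whole. YUC4 differed by -0.015, -0.019 and -0.021, while YUC11 differed by -0.0012, -0.0017 and 0.040. The difference of YUC6, -0.23 in each mutant, rested on wild type array 1, at 2.47.

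Of genes for other steps, UGT74D1 and UGT84B1, glucosyltransferases that act on auxin, did not pass in any mutant, and UGT74D1 was well expressed at 9.16 ± 0.33 in bdg, 8.85 ± 0.36 in fdh and 8.88 ± 0.26 in lcr, against 8.78 ± 0.24 in wild type (SD, n = 3 each). Of 29 Aux/IAA genes, which encode repressors of the auxin response and are in part switched on by auxin, 7 had a named probe set and 0 passed limma in any mutant, beside 0.0923% of all probe sets called higher in bdg, 1.53% in fdh and 0.339% in lcr. An unadjusted limma p under 0.05 was seen in 0, 1 and 0 of the 7 in bdg, fdh and lcr, again without the share over all probe sets. Rank Product called 1 of the 7, IAA29, higher in fdh (pfp = 0.0116), beside 1.69% of all probe sets, a gene named here after its values were seen. IAA29 was at 2.38, 2.10 and 3.37 in bdg, 6.45, 6.57 and 5.06 in fdh and 2.37, 5.39 and 5.22 in lcr, against 2.00, 3.39 and 4.22 in wild type. Its fdh arrays lay above all wild type arrays, its bdg and lcr arrays overlapped those of wild type, and the fdh and lcr arrays overlapped each other. All its bdg and wild type values lie under the lowest array median. Array 1 was the lowest of the lcr arrays, as it was for WES1. The log2 difference in fdh was 2.82 (standard error 0.889, limma adjusted p = 0.162). IAA18 was well expressed at 8.46 ± 0.22 in bdg, 8.17 ± 0.29 in fdh and 8.35 ± 0.33 in lcr, against 8.28 ± 0.18 in wild type (SD, n = 3 each), and its values overlapped between the genotypes.

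In all, 18 of 131 listed auxin genes had a named probe set, and 13 of the 18, YUC2 included, lay under the lowest array median on all 12 arrays. No probe set was named for the listed auxin receptors, response factors, transporters, SAUR genes or genes of the aldoxime and nitrile branch of auxin synthesis, which are not analysed here.

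**Figure D4:**
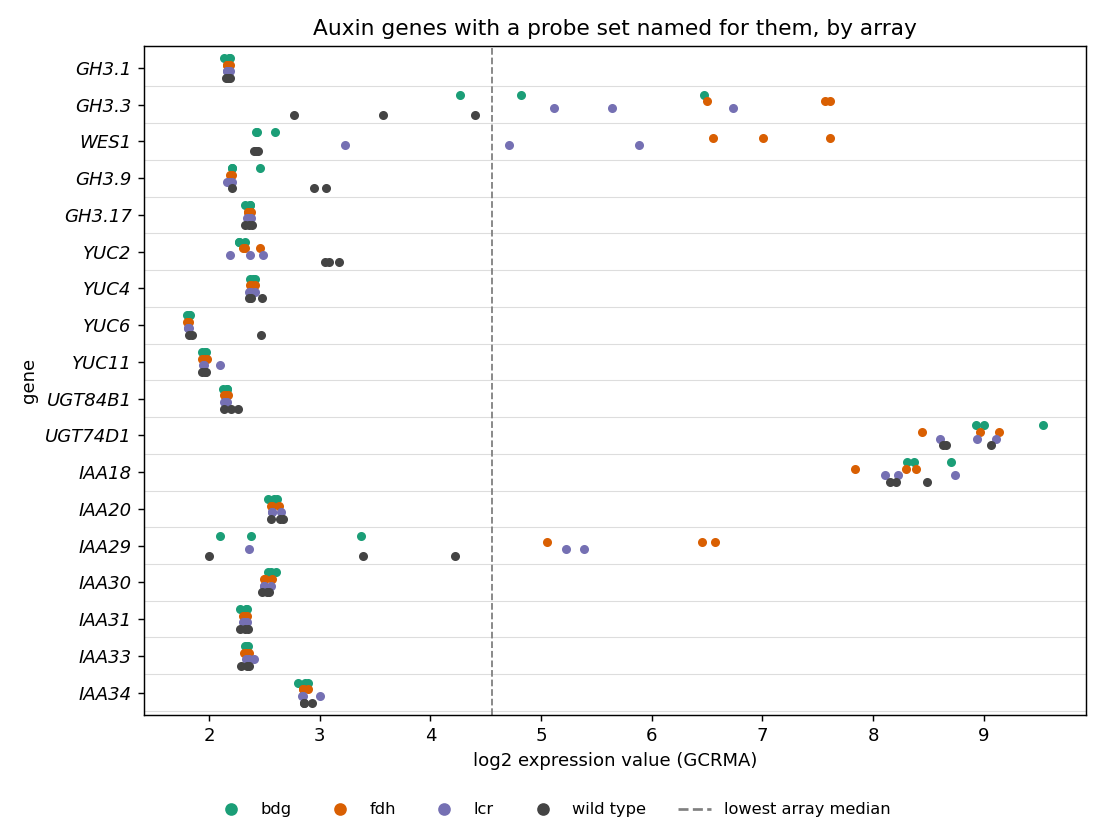
Log2 expression values (horizontal axis) of the 18 listed auxin genes with a named probe set, 1 point per array, coloured by genotype, with the lowest array median, 4.56, as a dashed line. GH3.3, WES1 and IAA29 spread over several log2 units with fdh highest, UGT74D1 and IAA18 lie above 7.8 in all genotypes, and the other 13 genes lie left of the line on all arrays.

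The genes whose pattern over the 12 arrays was most like that of a member were sought by Pearson correlation among 13512 other named probe sets. All points share the 4 genotypes, and the correlations are a description of 12 arrays. Levels that these genes share with a member follow from the way they were picked. The choice of measure decided which genes were nearest, since the 5 nearest by Pearson and by Spearman correlation shared 0 genes for GH3.3, 1 for WES1 and 0 for YUC2. For GH3.3 the nearest were At1g28540 (r = 0.939), At2g24550 (0.936), GID1B, a receptor of the hormone gibberellin (0.923), At2g38870 (0.917) and At1g65500 (0.915). GID1B had a mean log2 value of 4.49 in bdg, 5.66 in fdh and 4.59 in lcr, against 3.27 in wild type, which is the order of the genotypes seen for GH3.3. Its bdg and wild type means lie under the lowest array median. For WES1 the nearest were At2g36220 (r = 0.972), At4g26060 (0.951), At1g01730 (0.938), At1g25275 (0.937) and At5g10695 (0.936). At2g36220 had a mean of 3.57 in bdg, 7.44 in fdh and 4.64 in lcr, against 3.48 in wild type, and so shared with WES1 the bdg level close to that of wild type. For both genes the bdg and wild type means lie under the lowest array median. For YUC2 the nearest were At3g20620 (r = 0.929, Spearman's rho 0.385), At3g46020 (0.920), At3g15220 (0.888), At5g25475 (0.872) and At3g21950 (0.872), all with lower means in each mutant than in wild type. At3g21950 had the largest span of these, with 4.63 in bdg, 4.44 in fdh and 4.74 in lcr, against 6.37 in wild type. It passed limma in fdh (adjusted p = 0.0351) and not in bdg (0.265) or lcr (0.148). Only At3g20620 of the 5 passed in bdg (0.027) and lcr (0.0201), and its means lie under the lowest array median in every genotype. The 5 were picked on these same arrays for their likeness to YUC2, so these calls are no separate results. GH3.3 and WES1 correlated at r = 0.804 with each other, so that WES1 was in place 130 in the order for GH3.3, and GH3.3 was in place 232 in the order for WES1.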

How the data were processed

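The 12 ATH1 arrays were grouped by genotype from the sample titles, 3 replicates each. The authors deposited 1 log2 value per probe set and array. Per the submitters' processing notes these come from GCRMA, in a version that is not stated, which combines a correction of background by probe sequence, a normalization between arrays and a summary of probes. This processing sets a floor, near which small differences have little spread. The number of arrays limits the precision. All 22746 probe sets were tested without a filter on low values, and 64 controls were left out.

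Groups were compared with limma 3.58.1 in R 4.3.3, with all arrays in 1 model, no replicate block and an adjusted p under 0.05. Rank Product was written anew in Python 3.11.15, over 9 ratios of arrays per comparison, with 100 permutations and a pfp under 0.05. Both were also run on simulated data, with outcomes that are not given here. Genes were named through the platform annotation, which gives 1 gene for 13513 probe sets, and coordinates come from RefSeq (TAIR10.1). Named were the members, other listed GH3 and YUC genes with a probe set, up to 3 other listed auxin genes per list and direction past limma's threshold (none were), and the 5 nearest patterns. The members and lists were chosen with earlier results of these data known. Labels describe harvest rounds of 1 sample per genotype, but do not tie replicate numbers to rounds. Alternatives were a filter on low values, second normalizations, a trend in the variance, a replicate block, only the groups compared, 3′ to 5′ covariates, a stricter pfp and arrays left out. Phloem and floral markers had no named probe set. No sequences are shown.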

Additional observations from a re-analysis of the deposited data

Results flagged for a closer look

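WES1 differed between mutants under the same contrast with wild type. The direct limma test of fdh against bdg gave a log2 difference of 4.58 (adjusted p = 0.0166). All 3 bdg values lie under the lowest array median. The adjusted p was over 0.05 when fdh array 1 (0.073), bdg array 1 (0.0651), bdg array 2 (0.06) or bdg array 3 (0.0514) was left out.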

How the results depend on the processing

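The 3 genes had 227 values under settings other than single arrays left out. Of these, 13 no longer passed, 4 newly passed and 5, none called, changed sign. The other 205 kept direction and side of the threshold, mostly uncalled throughout, and do not show how stable calls are. Causes were not tested. Limma models of 1 mutant and wild type alone have fewer arrays to estimate the spread. They ended calls for GH3.3 in fdh (log2 difference 3.64, adjusted p = 0.0995) and YUC2 in bdg (-0.81, 0.103) and lcr (-0.75, 0.169). With the GAPDH difference as a covariate the GH3.3 call ended (3.35, 0.0573). Without wild type array 2 and bdg array 1 together, calls ended for GH3.3 in fdh (3.64, 0.0827), WES1 in fdh against bdg (4.55, 0.0695) and YUC2 in bdg (-0.83, 0.0721). Without lcr array 1 as well, a setting chosen after seeing the data, they ended for GH3.3 in fdh (3.64, 0.0958) and YUC2 in bdg (-0.83, 0.0701) and lcr (-0.70, 0.0611). The mean of the mutants against wild type newly passed for GH3.3 (2.50, 0.0246) and WES1 (2.29, 0.0142) with a filter on low values, which left YUC2 out, and for WES1 also with a trend in the variance (2.29, 0.0383) and with an actin covariate chosen after seeing the data (2.29, 0.039). In lcr, Rank Product calls ended at a pfp limit of 0.01 for GH3.3 (0.0154) and WES1 (0.0201), and for WES1 with the filter (0.0567). Differences of YUC2 between mutants changed sign with arrays centred on their medians (-0.0013 for fdh against bdg, -0.021 for lcr against bdg) and, for fdh against lcr, with the GAPDH covariate (-0.015), the actin covariate (-0.037) and without those 3 arrays (-0.069).

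With single arrays left out, log2 differences ranged for GH3.3 from 3.24 to 4.06 in fdh against wild type. For WES1 they ranged from 4.30 to 4.83 in fdh against bdg, from 1.54 to 2.87 in lcr against wild type and from 2.08 to 2.52 in the mean of the mutants. For YUC2 they ranged from -0.84 to -0.78 in bdg against wild type, from -0.069 to 0.081 in fdh against lcr and from -0.011 to 0.14 in lcr against bdg. The pfp was 0.0348 to 0.726 in bdg and 0.0135 to 0.175 in lcr for GH3.3, and 0.0347 to 0.264 in lcr for WES1.

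Of 18 pairs sharing only a replicate number, 14 had deviations from group means correlated above 0.1 (range -0.36 to 0.73). Unlike numbers gave -0.55 to 0.74, highest for bdg 1 with wild type 2, the arrays of largest GAPDH difference. Own numbers correlated best in 7 of 12 samples. The replicate block ended or added no call of the 3 genes. In fdh against wild type it gave adjusted p = 0.0289 for GH3.3 and 0.0148 for WES1, and called 847 probe sets (493 without it). Over these settings, single arrays left out aside, limma called 1 to 51 probe sets in bdg (25 in the reported model), 53 to 847 in fdh (493), 6 to 191 in lcr (91), 16 to 381 in fdh against bdg (173), 0 to 84 in fdh against lcr (20) and 97 to 322 in the mean of the mutants (187). Rank Product called 59 to 128 in bdg (126), 157 to 429 in fdh (427) and 91 to 255 in lcr (260). Values under the lowest array median limit what a difference there can show. They are all of YUC2, WES1 in bdg, wild type and lcr array 1, and GH3.3 in wild type and bdg array 1.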
